A study of Arabidopsis thaliana with 12 samples.

Results

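The 4 CLASSY genes, CLSY1 to CLSY4, and SHH1 were examined by their own DNA methylation in shoot stem cells of Arabidopsis thaliana. The 5 genes were taken from the table by their locus identifiers, AT3G42670 (CLSY1), AT5G20420 (CLSY2), AT1G05490 (CLSY3), AT3G24340 (CLSY4) and AT1G15215 (SHH1). All 5 had a value in every group and sequence context, among 26975 protein-coding genes with a CG value in all 6 groups, 26952 with a CHG value and 27129 with a CHH value. The annotation used here lists the first 4 as CHR38, CHR42, chr31 and CHR40, and it carries the name CLSY1 for AT3G42670 only. The names CLSY2 to CLSY4 came from the list by which the genes were chosen.

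RNA-directed DNA methylation begins with RNA polymerase IV (Pol IV), a plant-specific polymerase whose transcripts are made double-stranded, cut into small RNAs and used to guide methylation to matching DNA. The CLASSY proteins are putative SNF2-type chromatin remodelers that associate with Pol IV and are needed for its activity at different sets of loci, CLSY1 and CLSY2 at one set and CLSY3 and CLSY4 at another. SHH1 is a homeodomain protein that reads histone H3 methylated at lysine 9 and recruits Pol IV together with CLSY1 and CLSY2. Cytosines in plants are methylated in CG, CHG and CHH contexts, where H stands for A, C or T. Many expressed genes carry methylation in the CG context alone, within the gene body, while transposons carry it in all 3.

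Bisulfite sequencing read single cytosines as methylated or unmethylated in nuclei sorted from inflorescence apices by a red fluorescent histone driven by the promoter of CLV3, a gene of the stem cells of the shoot meristem. Every genotype was in the Col-0 background and carried this reporter. There were 6 groups of 2 libraries each: poliv after heat and poliv control, plants with an insertion in NRPD1, the gene of the largest Pol IV subunit (nrpda-3), ddm1 after heat and ddm1 control, plants with an insertion in the chromatin remodeler gene DDM1 (ddm1-10), and wt after heat and wt control, the reporter line without either mutation. Heat lasted 1 day at 37 °C and ended at day 7, and all nuclei were collected at day 28, after 21 days of recovery on soil. The table gave 1 pooled value per group, so no spread between libraries could be given, and every interval below covers counting error only. A level averages all sites of a gene over all nuclei sorted, and few nuclei methylated throughout cannot be told apart from many methylated in part. The table held methylation only, so the expression of stem cell markers was not analysed here.

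The disrupted genes and the chloroplast were read first in all 6 groups. DDM1 had 48.7% CHG methylation in ddm1 heat and 49.5% in ddm1 control, against 0.547% in wt heat and 0.434% in wt control. NRPD1 had 14.9% CHG methylation in both poliv groups, against 0.951% in wt heat and 0.730% in wt control. Chloroplast genes, which read as a background of calls that escaped conversion, stood between 0.616% and 0.805% in the 3 heat groups and between 0.328% and 0.450% in the 3 control groups over the 3 contexts. The wt control group was the shallowest in every context, with 30597398 CG calls in all, against 40440617 to 48850347 in the other groups.

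Since all 5 genes turned out to be methylated at CG sites almost alone, the CG sites were located in the reference sequence. Coordinates are those of TAIR10.1. CLSY1 lies at chr3:14755798-14760629 on the minus strand, with 128 CG sites over 4832 bases. CLSY2 lies at chr5:6898790-6904242 on the minus strand, with 150 CG sites over 5453 bases. CLSY3 lies at chr1:1618504-1623489 on the minus strand, with 81 CG sites over 4986 bases. CLSY4 lies at chr3:8831935-8835829 on the minus strand, with 91 CG sites over 3895 bases. SHH1 lies at chr1:5238044-5240051 on the plus strand, with 44 CG sites over 2008 bases.

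CLSY3 was the poorest in CG sites, with 16.2 per kb, which stood at percentile 6.67 of the genes tested, where the median gene had 25.1. The other 4 genes had 21.9 to 27.5 per kb. In CLSY1 to CLSY4 between 84.7% and 94.5% of the CG sites lay in coding exons, against 61.4% in SHH1, whose coding sequence of 795 bases is split over 8 exons. The stretches below are the 120 bases of a coding exon with the most CG sites in each gene, shown because CG sites carried nearly all of the methylation described here, with each CG in capitals and the coding strand written 5′ to 3′. They are exon 3 of 5 in CLSY1 (chr3:14758397-14758516), exon 4 of 6 in CLSY2 (chr5:6901817-6901936), exon 2 of 4 in CLSY3 (chr1:1623051-1623170), exon 1 of 3 in CLSY4 (chr3:8835503-8835622) and exon 7 of 8 in SHH1 (chr1:5239295-5239414).
CLSY1: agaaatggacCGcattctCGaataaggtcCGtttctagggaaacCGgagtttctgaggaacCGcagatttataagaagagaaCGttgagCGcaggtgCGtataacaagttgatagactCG
CLSY2: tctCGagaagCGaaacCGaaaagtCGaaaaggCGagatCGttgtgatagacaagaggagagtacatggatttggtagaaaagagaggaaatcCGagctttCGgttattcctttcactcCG
CLSY3: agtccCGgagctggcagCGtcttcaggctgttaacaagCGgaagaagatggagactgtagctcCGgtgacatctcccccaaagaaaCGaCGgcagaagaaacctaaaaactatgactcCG
CLSY4: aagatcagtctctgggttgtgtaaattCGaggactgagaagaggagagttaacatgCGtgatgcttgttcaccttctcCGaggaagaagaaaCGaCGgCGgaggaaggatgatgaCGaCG
SHH1: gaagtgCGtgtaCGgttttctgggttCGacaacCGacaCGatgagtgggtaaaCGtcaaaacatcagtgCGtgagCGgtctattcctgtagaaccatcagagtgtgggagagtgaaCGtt
The stretches of CLSY1, CLSY2 and SHH1 hold 9 CG sites each, that of CLSY4 holds 8 and that of CLSY3 holds 7. The table gives 1 level per gene, so the level within these stretches was not analysed here.

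**Figure D1:**
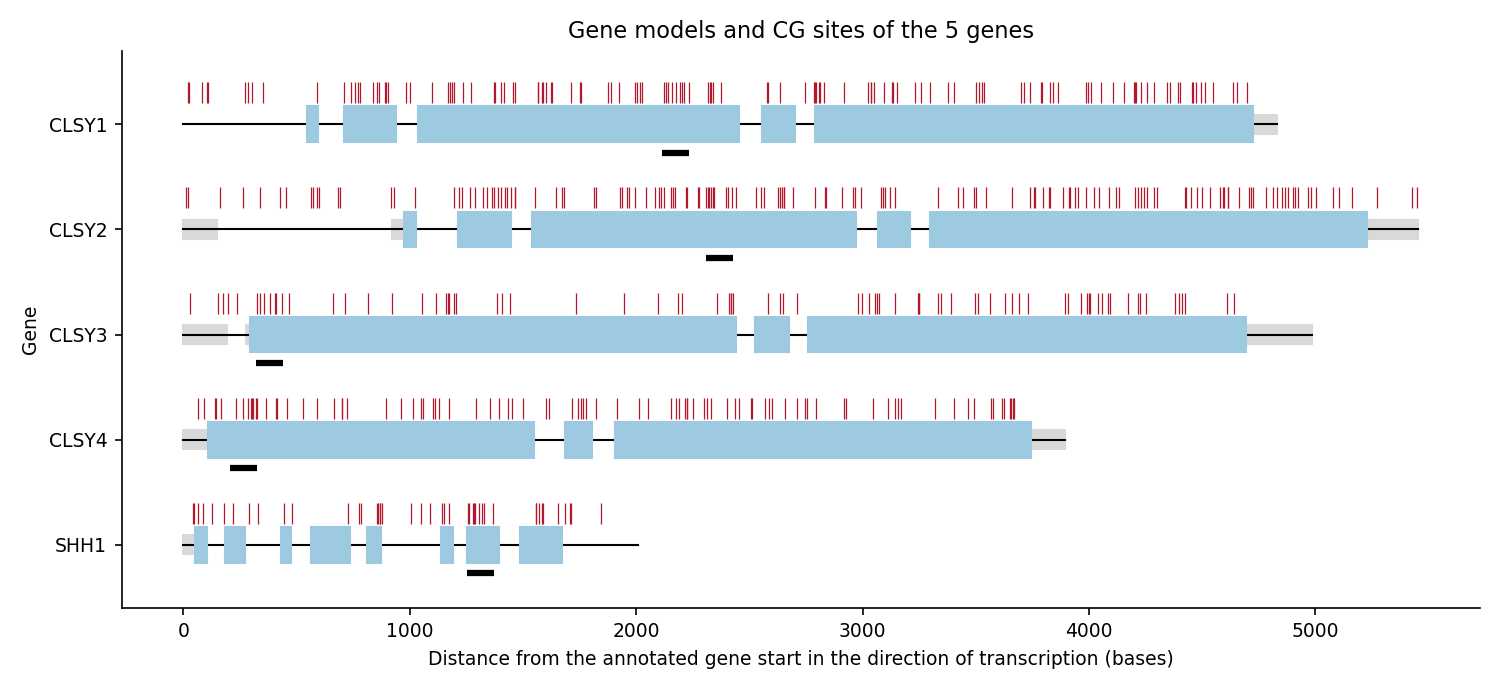
Gene models of the 5 genes drawn to scale from the annotated start in the direction of transcription (x axis, bases), 1 row per gene, from the transcript with the longest coding sequence. Blue boxes are coding exons, grey boxes the noncoding parts of exons, red ticks the CG sites (128, 150, 81, 91 and 44 from top to bottom) and black bars the 120 bases printed in the text.

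Because the CLASSY genes are relatives, their likeness was measured before their levels were compared. The coding sequences of CLSY1 and CLSY2 shared 79.5% of 3717 aligned bases, and those of CLSY3 and CLSY4 shared 63.8% of 3354. Across the other CLASSY pairs the identity was 59.5% to 60.5%. The longest run of bases that CLSY1 and CLSY2 had in common over their whole genes was 35 bases long, and it held no CG site:
shared run of CLSY1 and CLSY2: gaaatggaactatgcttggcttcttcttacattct
With C read as T, or G as A on the other strand, as in converted reads, the longest shared run was 60 bases. Sequenced reads had 100 bases before trimming, which clipped fixed lengths from both ends, so the aligned reads were shorter. The run that CLSY3 and CLSY4 shared was 15 bases, or 25 after conversion.

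In wt, CLSY1 was the most methylated of the 5 genes in the CG context and CLSY3 the least. CLSY1 had a CG level of 49.4% in poliv heat, 47.2% in poliv control, 20.2% in ddm1 heat, 21.3% in ddm1 control, 46.0% in wt heat and 46.1% in wt control. In wt control this stood at percentile 92.8 of all genes, where the median gene had 4.71%. The 2 ddm1 groups lay below the other 4, which stood between 46.0% and 49.4%.

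CLSY2, the closest relative of CLSY1, was less methylated in every group. Its CG level was 22.4% in poliv heat, 21.5% in poliv control, 3.89% in ddm1 heat, 1.95% in ddm1 control, 19.2% in wt heat and 19.2% in wt control. Both ddm1 groups were again the lowest. In ddm1 control CLSY2 stood at percentile 49.5 of all genes, against 72.6 in wt control.

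CLSY3 carried little CG methylation in any group. Its level was 7.90% in poliv heat, 7.68% in poliv control, 2.002% in ddm1 heat, 1.23% in ddm1 control, 9.48% in wt heat and 9.43% in wt control. The ddm1 levels were the lowest here too, and their Wilson 95% intervals of 1.46% to 2.75% and 0.826% to 1.82% lay above the chloroplast levels of 0.739% in ddm1 heat and 0.380% in ddm1 control.

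CLSY4 was more methylated than its closest relative CLSY3. Its CG level was 25.9% in poliv heat, 25.1% in poliv control, 16.8% in ddm1 heat, 14.5% in ddm1 control, 30.2% in wt heat and 27.7% in wt control. The ddm1 groups were the lowest and the wt groups the highest.

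SHH1 did not follow the CLASSY genes. Its CG level was 25.4% in poliv heat, 29.4% in poliv control, 27.4% in ddm1 heat, 25.9% in ddm1 control, 26.2% in wt heat and 24.4% in wt control. All groups lay between 24.4% and 29.4%, with the ddm1 levels among the others. SHH1 also had the fewest calls, 659 CG calls in wt control, and its Wilson 95% interval there ran from 21.3% to 27.9%.

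**Figure D2:**
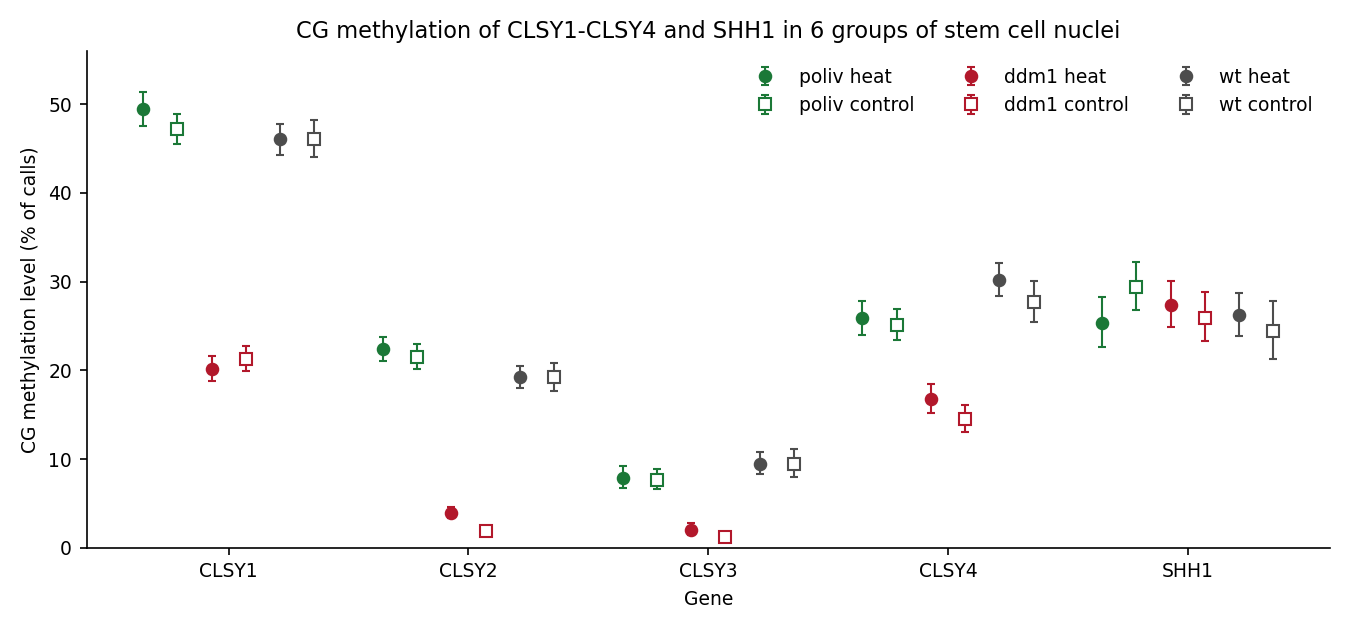
CG methylation level (y axis, % of calls) of each gene in the 6 groups, given from left to right as poliv heat, poliv control, ddm1 heat, ddm1 control, wt heat and wt control. Points are pooled values of 2 libraries and bars are Wilson 95% intervals. The ddm1 points lie below all others in CLSY1 to CLSY4, and among the others in SHH1, where they are 27.4% and 25.9%.

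The order of the 5 genes was CLSY1, CLSY4, SHH1, CLSY2, CLSY3 from high to low in poliv heat, wt heat and wt control, and SHH1 stood above CLSY4 in poliv control. In both ddm1 groups SHH1 was the highest, followed by CLSY1, CLSY4, CLSY2 and CLSY3. Most neighbours in these orders differed by more than counting error. The 95% interval of the difference covered 0 for CLSY4 and SHH1 in poliv heat (0.476 percentage points) and in wt control (3.24), and for SHH1 and CLSY2 in poliv heat (3.01). In ddm1 control CLSY2 and CLSY3 were separated by 0.722 percentage points with an interval of 0.00932 to 1.36. These intervals are from Newcombe's method on the pooled calls, and they leave out the spread between libraries.

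The comparison of ddm1 with wt asked how the methylation of these genes differed where the remodeler DDM1 was mutated. A gene was called different where Fisher's exact test on the methylated and unmethylated calls, two-sided and adjusted over all genes of the context by the Benjamini-Hochberg method, gave an adjusted p under 0.05 with a difference of at least 5 percentage points, in the same direction in the heat pair and in the control pair. The test compares pooled libraries, and calls on the same read are not independent. By this rule 4 of the 5 genes, CLSY1 to CLSY4, fell in CG methylation in ddm1. Of all genes, 21.6% were lower and 21.8% were called in either direction. The median difference over both pairs was -13.3 percentage points for the 5 genes and -0.73 for all genes. All genes include many with little CG methylation to lose. The median gene had 5.17% in wt heat and 4.71% in wt control, and genes up to that wt control level could not be called lower. Each of the 5 genes had at least 9.43% in wt. The same limit holds below wherever the 21.6% of all genes stands beside a list or the neighbours.

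CLSY1 differed between ddm1 and wt by -25.8 percentage points after heat (95% interval -28.0 to -23.6, adjusted p = 3.69e-108 by Fisher's exact test) and by -24.8 in controls (-27.3 to -22.3, adjusted p = 1.11e-80). It was the largest difference among the 5 genes in both pairs, and stood at percentile 5.16 of all genes after heat and 5.02 in controls. CLSY2 differed by -15.3 percentage points after heat (-16.7 to -14.0, adjusted p = 2.64e-102, exact) and by -17.3 in controls (-18.9 to -15.6, adjusted p = 9.64e-121). For CLSY4 the differences were -13.4 after heat (-15.9 to -11.0, adjusted p = 4.47e-25, exact) and -13.2 in controls (-15.9 to -10.5, adjusted p = 5.19e-21). For CLSY3, which had the least to lose, they were -7.47 after heat (-8.91 to -6.08, adjusted p = 5.92e-24, exact) and -8.20 in controls (-9.91 to -6.65, adjusted p = 7.38e-28). With a minimum difference of 10 percentage points CLSY3 was not called, and could not be called lower, since its wt levels were 9.48% and 9.43%.

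SHH1 differed between ddm1 and wt by 1.21 percentage points after heat (95% interval -2.36 to 4.79, adjusted p = 0.750 by Fisher's exact test) and by 1.51 in controls (-2.81 to 5.73, adjusted p = 0.804). The lower bounds of both intervals lay above the differences of all 4 CLASSY genes, while a change of a few percentage points either way was not detectable at this depth. The difference stood at percentiles 94.4 and 95.4 of all genes, since most genes were lower in ddm1.

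**Figure D3:**
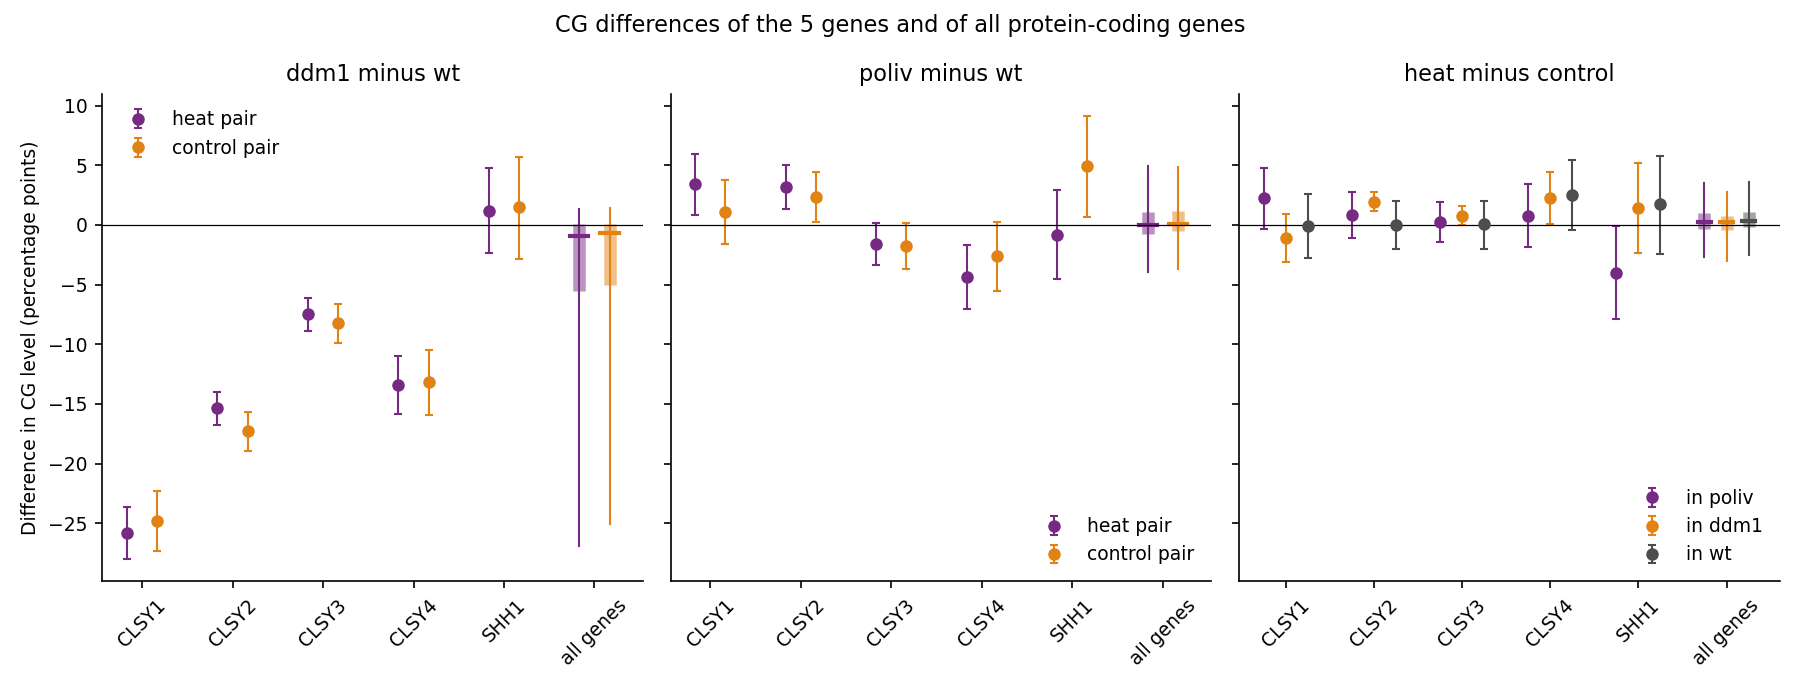
Difference in CG level (y axis, percentage points) for ddm1 minus wt, poliv minus wt and heat minus control, for the 5 genes (points with Newcombe 95% intervals) and all 26975 genes tested (horizontal mark the median, thick bar percentiles 25 to 75, thin line percentiles 5 to 95). CLSY1 to CLSY4 lie between -25.8 and -7.47 in the left panel, while all points of the other panels lie between -4.34 and 4.96.

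The 4 CLASSY genes also differed in how much of their wt level remained in ddm1. CLSY2 kept 20.3% of its wt level after heat (95% interval 17.0% to 24.1%) and 10.1% in controls (7.97% to 12.9%). CLSY3 kept 21.1% after heat (15.0% to 29.8%) and 13.0% in controls (8.46% to 20.0%). The intervals of CLSY2 and CLSY3 overlapped in both pairs. The shares were not corrected for unconverted calls, which weigh most where the ddm1 level is low. CLSY3 had 2.002% in ddm1 heat and 1.23% in ddm1 control, beside chloroplast CG levels of 0.739% and 0.380%.

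CLSY1 kept 43.9% after heat (40.6% to 47.4%) and 46.2% in controls (42.6% to 50.0%), and CLSY4 kept 55.5% after heat (49.5% to 62.1%) and 52.4% in controls (46.0% to 59.8%). So neither the relatives CLSY1 and CLSY2 nor the relatives CLSY3 and CLSY4 kept like shares, and in each of these pairs of genes the intervals lay apart. SHH1 kept 104.6% after heat (91.5% to 119.6%) and 106.2% in controls (89.5% to 126.0%).

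For comparison, 11670 genes had a CG level of at least 5% and a CHG level under 5% in both wt groups, all 5 genes among them. The median of these body-methylated genes kept 76.7% after heat and 77.9% in controls, with quartiles of 53.1% and 90.3% after heat and 55.0% and 91.6% in controls. CLSY2 stood at percentiles 9.42 and 4.04 of them, CLSY3 at 9.78 and 5.30, CLSY1 at 19.7 and 19.8, CLSY4 at 26.8 and 23.3, and SHH1 at 92.4 and 91.4, after heat and in controls in each case. At least 90% of the wt level remained in both pairs in 1967 of these genes, or 16.9%.

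**Figure D4:**
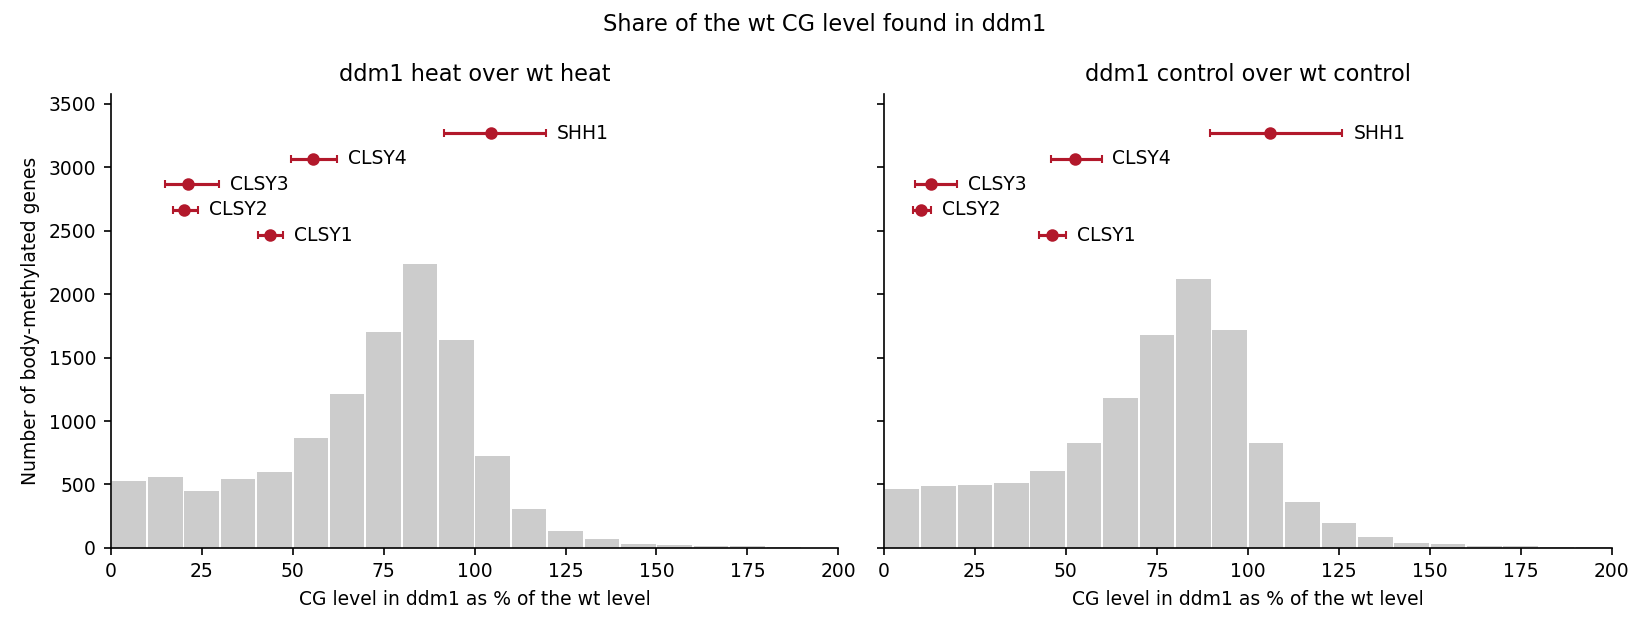
CG level in ddm1 as a percentage of the wt level (x axis) after heat (left) and in controls (right). Grey bars count body-methylated genes (y axis) in steps of 10, leaving out 8 and 12 genes at 200% or more, and red points with 95% intervals are the 5 genes, placed above the bars at heights that carry no value. SHH1 lies at 104.6% and 106.2%, and CLSY2 at 20.3% and 10.1%.

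The comparison of poliv with wt asked whether methylation within the genes that bring Pol IV to its targets differed where Pol IV was mutated. The promoters of these genes were not analysed here. None of the 5 genes was called in the CG context, where 2.4% of all genes were. Their median difference was 2.08 percentage points, against 0.07 for all genes, but the 5 genes went both ways. Over both pairs the mean difference was 2.26 for CLSY1, 2.73 for CLSY2 and 2.08 for SHH1. It was -1.66 for CLSY3 and -3.47 for CLSY4. Fisher's exact test alone, without the minimum of 5 percentage points, passed in the heat pair for CLSY2, which was higher in poliv by 3.14 percentage points (95% interval 1.31 to 4.99, adjusted p = 0.00939), and for CLSY4, which differed by -4.34 (-7.02 to -1.64, adjusted p = 0.0171). That test alone passed for 14.3% of all genes in the heat pair. Neither gene passed in the control pair, where the differences were 2.32 for CLSY2 (adjusted p = 0.184, exact) and -2.59 for CLSY4 (adjusted p = 0.336).

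CLSY1 differed between poliv and wt by 3.41 percentage points after heat (0.854 to 5.96, adjusted p = 0.0625, exact) and by 1.11 in controls (-1.60 to 3.81, adjusted p = 0.854). CLSY3 differed by -1.57 after heat and -1.75 in controls, with intervals that covered 0. SHH1 was 4.96 percentage points higher in poliv control than in wt control (0.638 to 9.16, adjusted p = 0.163, exact), but differed by -0.800 after heat (-4.49 to 2.95, adjusted p = 0.976).

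Outside the CG context the 5 genes stayed close to the background. Their CHG levels ran from 0.231% to 1.71% and their CHH levels from 0.268% to 0.823% over the 6 groups. Of the 30 CHG values, 9 were above the chloroplast level of their group by a 95% interval of the difference, 21 were not separated from it and none was below. Of the 30 CHH values, 1 was above, 20 were not separated and 9 were below. The chloroplast thus gave no exact floor for nuclear genes in the CHH context.

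The 9 CHG values above the chloroplast came from CLSY1, CLSY4 and SHH1 in ddm1 heat, ddm1 control and wt control. CLSY1 had a CHG level of 0.882% in poliv heat, 0.516% in poliv control, 1.71% in ddm1 heat, 0.893% in ddm1 control, 0.658% in wt heat and 0.709% in wt control. The median gene had 0.954% in ddm1 heat and 0.729% in wt heat, and CLSY1 in ddm1 heat stood at percentile 81.3. CLSY4 had 1.31% in ddm1 heat and 0.717% in ddm1 control, against 0.771% in wt heat and 0.686% in wt control. SHH1 had 1.71% in ddm1 heat and 1.29% in ddm1 control, against 0.557% in wt heat and 0.945% in wt control. CLSY2 and CLSY3 had CHG levels between 0.231% and 0.885% in every group.

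**Figure D5:**
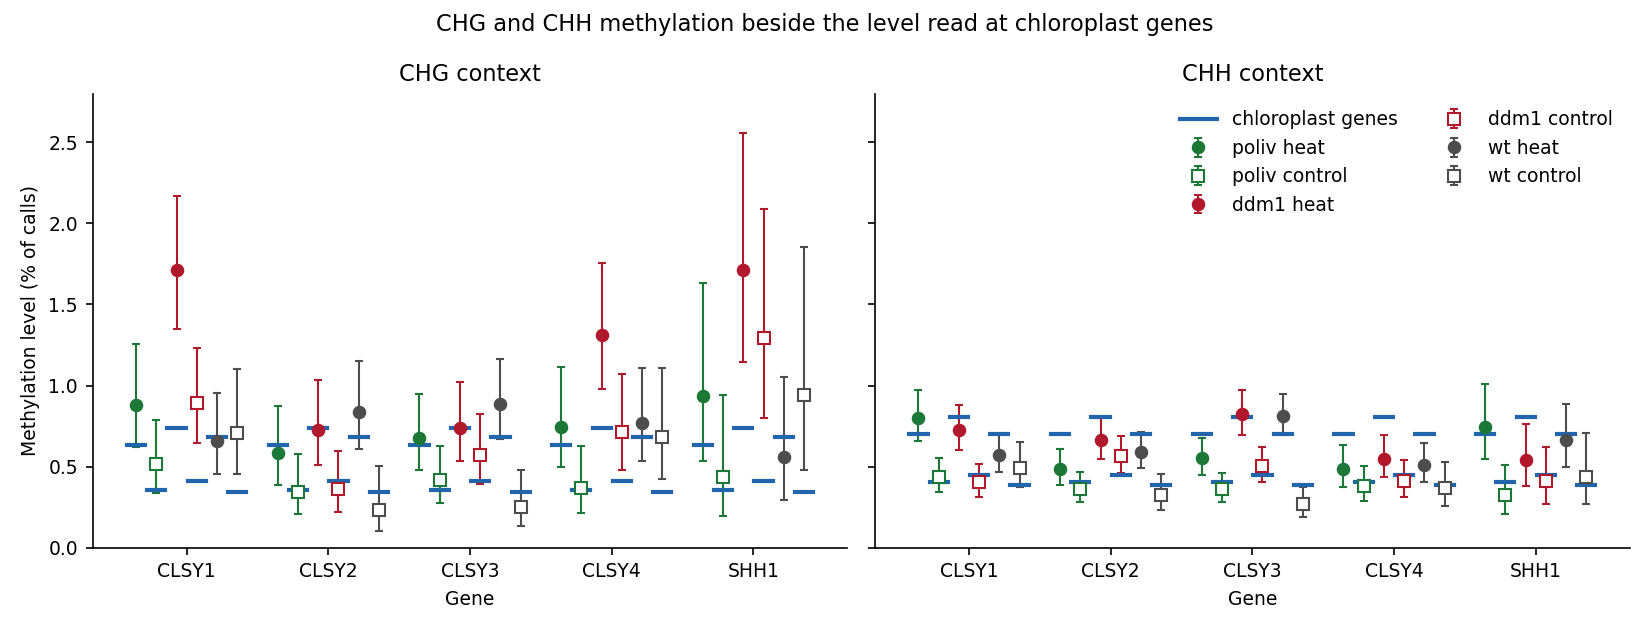
CHG (left) and CHH (right) methylation level (y axis, % of calls) of each gene in the 6 groups, in the order poliv heat, poliv control, ddm1 heat, ddm1 control, wt heat and wt control. Points are pooled values with Wilson 95% intervals and blue bars are the chloroplast genes of the same group. The highest points, 1.71%, are CLSY1 and SHH1 in the CHG context of ddm1 heat.

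None of the 5 genes was called in the CHG or CHH context for either mutant. A fall could not be called, since their wt levels were at most 0.945% in CHG and 0.812% in CHH, under the minimum of 5 percentage points. Whether they lose methylation in these contexts without Pol IV could thus not be asked, and only a rise could be called. Of all genes, 5.45% were called for CHG and 0.542% for CHH in ddm1, and 0.341% for CHG and 0.195% for CHH in poliv. Fisher's exact test alone passed in the heat pair for CHG in ddm1, where CLSY1 was higher by 1.05 percentage points (adjusted p = 1.51e-04) and SHH1 by 1.16 (adjusted p = 0.0261), while neither passed in the control pair. In that heat pair 17.9% of all genes passed. In the CHH context it passed for CLSY3, which differed by -0.259 percentage points between poliv heat and wt heat (adjusted p = 0.0470, exact) and by 0.235 between ddm1 control and wt control (adjusted p = 0.0286), pairs in which 8.12% and 7.7% of all genes passed. In the other pair of each contrast CLSY3 differed by 0.0933 between poliv control and wt control, the opposite sign, and by 0.0110 between ddm1 heat and wt heat, and neither passed.

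Heat was compared with control within each genotype to ask whether changes remained after 21 days. None of the 5 genes was called in the CG context in any genotype, where 1.13% of all genes were called in poliv, 1.41% in ddm1 and 0.69% in wt. In wt the CG levels of CLSY1, CLSY2 and CLSY3 differed by -0.0784, 0.0248 and 0.0464 percentage points between heat and control. CLSY4 differed by 2.53 (95% interval -0.442 to 5.45) and SHH1 by 1.75 (-2.41 to 5.76).

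In poliv the CG difference between heat and control was largest in SHH1, at -4.01 percentage points (95% interval -7.90 to -0.0781, adjusted p = 0.339 by Fisher's exact test). In ddm1 CLSY2 had 3.89% in heat and 1.95% in control, a difference of 1.95 (1.19 to 2.73, adjusted p = 1.24e-04, exact) that passed the test, as 4.39% of all genes did, but not the minimum. The chloroplast CG level stood at 0.739% in ddm1 heat and 0.380% in ddm1 control, and with the chloroplast background of both groups matched the difference was 1.62. The other ddm1 differences ran from -1.10 in CLSY1 to 2.25 in CLSY4.

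In the CHG context no gene of the 5 was called after heat, where 0.0742% of all genes were called in poliv, 1.12% in ddm1 and 0.0965% in wt. Here too the CHG and CHH levels of the 5 genes were too low for a fall of 5 percentage points. Fisher's exact test alone passed for CLSY1 in ddm1 (1.71% in heat, 0.893% in control, adjusted p = 0.0304) and for CLSY3 in wt (0.885% in heat, 0.251% in control, adjusted p = 0.0207), where 6.85% of all genes passed in ddm1 and 1.83% in wt. With the background matched these differences were 0.601 percentage points for CLSY1, against 0.818 as deposited, and 0.299 for CLSY3, against 0.634. None was called in the CHH context, where 0.14% of all genes were called in poliv, 0.103% in ddm1 and 0.273% in wt. There the test alone passed for CLSY1, CLSY3 and SHH1 in poliv, CLSY1 and CLSY3 in ddm1, and CLSY2 and CLSY3 in wt. As deposited, all 7 were higher after heat, by 0.191 to 0.544 percentage points. Of all genes, 31.4% passed in poliv, 44.2% in ddm1 and 40.3% in wt, beside 3, 2 and 2 of the 5 genes. The chloroplast CHH level was also higher after heat, at 0.704% against 0.404% in poliv, 0.805% against 0.450% in ddm1 and 0.703% against 0.390% in wt. With the chloroplast background of the groups matched, the differences were 0.0677 for CLSY1, -0.106 for CLSY3 and 0.0709 for SHH1 in poliv, -0.00474 for CLSY1 and -0.0321 for CLSY3 in ddm1, and 0.000664 for CLSY2 and 0.161 for CLSY3 in wt. All 7 were smaller in size, and 3 of them were negative. The matching adds methylated calls at random, in 1 draw, so the sign of values near 0 may depend on that draw.

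The effect of heat in each mutant was then set against that in wt, with a normal test on the difference of the 2 differences, adjusted over all genes. In the CG context none of the 5 genes was called for poliv, where 1.11% of all genes were, or for ddm1, where 1.92% were. The largest value was that of SHH1 in poliv, -5.76 percentage points. None was called in the CHG context, where 0.0371% of all genes were called for poliv and 0.898% for ddm1, or in the CHH context, where 0.35% and 0.313% were. The test alone, without the minimum, passed for CLSY3 in the CHH context of poliv, with a difference of -0.353 percentage points (95% interval -0.565 to -0.141), as it did for 5.65% of all genes.

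The other genes of RNA-directed DNA methylation were taken as a list of 27, all of them tested. In ddm1, 11 of the 27 fell in CG methylation and none rose, with a median difference of -2.59 percentage points, against -0.73 for all genes, of which 21.6% fell and 0.163% rose. With the minimum difference of 10 percentage points 3 of the 27 were called, beside 11.6% of all genes, and RDR2 was not among the 3. The 3 largest falls were in NRPD1, in DCL3, which cuts the double-stranded RNA, and in RDR2, the RNA-dependent RNA polymerase that works with Pol IV. DCL3 had 42.0% in ddm1 heat and 43.5% in ddm1 control, against 63.5% in wt heat and 61.7% in wt control. RDR2 had 36.1% in ddm1 heat and 42.6% in ddm1 control, against 55.2% in wt heat and 51.8% in wt control. NRPD1 had 46.5% in ddm1 heat and 49.0% in ddm1 control, against 69.7% in wt heat and 65.7% in wt control.

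In the CHG context 2 of the 27 rose in ddm1, RDR2 and NRPD1, as did 1.61% of all genes, and none of the 5 genes was called. RDR2 had 23.0% in ddm1 heat and 12.2% in ddm1 control, against 0.730% in wt heat and 0.361% in wt control, and it was called between heat and control in ddm1 as well. NRPD1 had 6.93% in ddm1 heat and 6.71% in ddm1 control, against the wt values given above. KTF1, a partner of Pol V, had 2.73% in ddm1 heat and 16.8% in ddm1 control, and fell after heat in ddm1. In poliv no gene of the list was called in the CG or CHH context, and only NRPD1 rose in CHG. A fall in CHG or CHH could not be called in either mutant, since all wt levels of the list lay under 5%. DRM2 had a CHG level of 0.699% in poliv heat and 0.499% in poliv control, against 4.113% in wt heat and 4.696% in wt control. Without a minimum difference 1 gene of the list was lower in poliv in CHG. In CHH 1 was then lower and 1 higher.

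Between heat and control the CG level of 1 of the 27 genes was called in each genotype, against 1.13% of all genes in poliv, 1.41% in ddm1 and 0.69% in wt. AGO4, which binds the small RNAs, rose in wt to 34.6% in heat, against 29.0% in control. DMS4, a factor of transcription by several polymerases, fell in poliv to 21.7% in heat, against 29.0% in control. RDR2 fell by 6.48 percentage points in ddm1. None of these 3 calls held with the test statistic scaled for its dispersion over genes or with the minimum of 10 percentage points, and that of AGO4 was also lost with the background matched.

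The CLASSY genes were also set beside 15 other members of the SNF2 family, of which DRD1 is in the list above too. In ddm1, 7 of the 15 fell in CG methylation and none rose, with a median of -5.29 percentage points, against 21.6% of all genes and their median of -0.73. With the minimum difference of 10 percentage points 2 of the 15 were called, beside 11.6% of all genes. The 3 largest falls were in RAD54 (12.9% in ddm1 heat and 13.2% in ddm1 control, 27.8% in wt heat and 25.2% in wt control), CHR23 (21.2% and 20.4% in ddm1 heat and control, 33.7% and 32.5% in wt heat and control) and DRD1, the remodeler of the Pol V step (40.7% and 42.8% in ddm1 heat and control, 49.9% and 50.0% in wt heat and control). In the CHG and CHH contexts the gene called was DDM1 itself, which rose in both. In poliv none of the 15 was called. Their wt levels in CHG and CHH were again too low for a fall to be called. After heat CHR5 alone was called, with a CG level of 60.3% in poliv heat and 54.2% in poliv control, and it was lost under the same settings as DMS4.

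The genes nearest to each of the 5 on the chromosome were read for the same contrast. AT3G42660, which lies 96 bases from CLSY1, had a CG level of 28.4% in ddm1 heat and 29.7% in ddm1 control, against 31.3% in wt heat and 31.8% in wt control, and was not called. On the other side the next protein-coding gene, AT3G42723, was 77762 bases away, and fell to 6.35% in ddm1 heat and 5.64% in ddm1 control, against 92.1% in wt heat and 91.4% in wt control. AT3G42723 was not methylated in CG alone. Its CHG level was 54.4% in wt heat and 55.6% in wt control, against 0.916% in ddm1 heat and 0.770% in ddm1 control. ABCG35, an ABC transporter gene 1157 bases from SHH1, fell to 0.960% in ddm1 heat and 0.543% in ddm1 control, against 8.29% in wt heat and 8.63% in wt control. CCMH, a gene of cytochrome c maturation that overlaps SHH1 by 23 bases on the other strand, had CG levels between 0.259% and 1.28% in all groups. MGD2 next to CLSY2 and AT3G24330 next to CLSY4 were also called lower in ddm1, which made 4 of the 10 neighbours, beside 21.6% of all genes. AT5G20430 next to CLSY2, CVP2 and NTMC2T2.1 on either side of CLSY3 and SYP32 next to CLSY4 were not called. None of the 10 was called in poliv, where 2.4% of all genes were called in the CG context.

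Genes with the most similar pattern were found by the mean absolute difference over the 18 levels, 6 groups in 3 contexts, among 26886 genes with all of them. The nearest to CLSY1 was AT1G42440 at 0.496 percentage points, to CLSY2 AT1G11303 at 0.295, to CLSY3 AT2G40120 at 0.212, to CLSY4 the sulfate transporter gene SULTR4;1 at 0.405 and to SHH1 PP2C52 at 0.337. The others among the 3 nearest were AT5G64170 and AT2G26970 for CLSY1, AT5G45540 and AT5G53020 for CLSY2, AT1G04880 and AT2G43700 for CLSY3, AT2G26790 and AT1G10520 for CLSY4, and AT1G04200 and EMB2770 for SHH1. None of the 5 genes was among the 3 nearest of another. The closest pair within the 5 was CLSY4 and SHH1, at 2.02 percentage points, and the closest to CLSY2 was CLSY3, at 2.86.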

How the data were processed

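Bisulfite libraries (Pico Methyl-Seq kit, single reads of 100 bases) were handled by the authors with bedtools 2.27, trimmed with Trim Galore 0.6.2, aligned to TAIR10 with Bismark 0.22.2, deduplicated and called with methylpy. The deposited table holds counts of methylated calls, the coverage as counts of all calls and their fraction, for 69873 features in 3 contexts, with 1 column set for each group of 2 libraries. No source used here says how the calls were summed or the libraries pooled. The smallest coverage listed was 21 calls. The deposited fraction columns were not used, and levels were computed from the counts. The 5 genes had 659 to 3937 CG calls, 847 to 5648 CHG calls and 3657 to 19579 CHH calls per group.

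Fisher's exact test was run on all protein-coding genes with values in all 6 groups, adjusted within a context and pair by the Benjamini-Hochberg method. Its two-sided p came from doubling the smaller one-sided hypergeometric tail (scipy 1.17.1), with 1 as the ceiling. Calls needed an adjusted p under 0.05 and 5 percentage points. Levels have Wilson 95% intervals, differences Newcombe intervals, and ratios intervals on the log scale. Calls on 1 read or from 1 nucleus are not independent molecules, so intervals and p-values cover counting error only. Differences of heat effects were tested with a normal approximation to the pooled counts. To match the background, methylated calls were added by 1 random draw (seed 7) to the group with the lower chloroplast level. The scripts were tested on simulated calls with counting error only and with changes well above 5 percentage points. That test does not give the rate of false or missed calls at the 5-point minimum in the real data.

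Coordinates and sequences are from RefSeq's TAIR10.1, matched by locus tag, and the longest coding transcript gave the exons. Coding sequences were aligned globally with Biopython 1.88.

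The genes named were the 5 members, DDM1 and NRPD1, up to 3 genes of each list with the largest called difference each way per comparison and context, the 3 genes nearest to each member over 18 levels, and the nearest protein-coding gene on each side. The members and lists were chosen with earlier results of these data known.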

Additional observations from a re-analysis of the deposited data

How the results depend on the processing

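No paired analysis was possible because the table holds 1 pooled value per group and no library of its own. For the same reason no library could be left out in turn. The calls of CLSY1, CLSY2 and CLSY4 in ddm1 in the CG context held under every alternative run: no minimum difference, a minimum of 10 percentage points, matched chloroplast background, a statistic scaled for dispersion over genes, both together, at least 100 calls, adjustment over genes and transposons, and each pair alone. CLSY3 was not called with a minimum of 10 percentage points (mean difference -7.84), a minimum above its whole wt level. Over all genes the 5834 lower calls in that comparison became 3134 with the minimum of 10. Of 15 shares of all genes called, 14 moved by over 1.5 times without a minimum difference (to between 0.571% and 44.2%), 14 with the minimum of 10 (to between 0.0147% and 11.6%) and 13 with the dispersion scaled, alone or with the background matched (to between 0% and 1.06%). With the background matched alone 2 of 15 moved, and 4 of 6 did with either pair alone. Of the other genes of RNA-directed DNA methylation, 8 of the 11 called lower in CG in ddm1 remained with the dispersion scaled, as did 6 of the 7 SNF2 relatives. Over all genes there were 5222 lower calls with that setting.

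Without a minimum difference, where 0 of the 5 genes were called otherwise, heat against control gave 1 call for CHG and 2 for CHH in wt, 3 for CHH in poliv, and 1 for CG, 1 for CHG and 2 for CHH in ddm1. No other count of the 5 genes moved by over 1.5 times.

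No called difference changed its sign. Of the differences that were not called, the mean of SHH1 in poliv in the CG context was -0.800 in the heat pair alone, and that of CLSY3 in poliv in the CHH context was 0.0933 in the control pair alone. With the background matched, also with the dispersion scaled, heat against control in the CG context was -0.357 for CLSY2 in wt, -0.0267 for CLSY3 in wt and -0.0158 for CLSY3 in poliv. In the CHH context it was -0.106 for CLSY3 in poliv, -0.00474 for CLSY1 in ddm1 and -0.0321 for CLSY3 in ddm1. All matched values come from 1 random draw of added calls, and the sign of those near 0 may depend on it. Over all differences of the 5 genes, 14 of 195 recomputed CHG values and 32 of 195 CHH values changed sign. The cause of these changes was not tested, beyond the matched background. Depth limits SHH1 most, whose intervals for the CG difference between mutant and wt in controls span over 4 percentage points each way.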
